A study of Homo sapiens with 12 samples.

Results

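Matrix metalloproteinases (MMPs) and tissue inhibitors of metalloproteinases (TIMPs) were followed through the transcriptomes of SZ95 sebocytes, human sebaceous gland cells kept as an immortalised line. The set was listed by gene name with earlier results of these data known, and no cut on measured values was applied to it. Its members are MMP1, MMP2, MMP3, MMP9, MMP10, MMP13, MMP14, TIMP1, TIMP2 and TIMP3, 10 genes of 60630 gene identifiers present in both deposited tables. The 12 libraries fall into 4 groups of 3, described as biological replicates: cells given LA, cells given LA and RVT, cells given PGN, and cells given PGN and RVT. RVT is resveratrol, a plant polyphenol, and the abbreviations are taken to mean linoleic acid (LA), which fills sebocytes with lipid, and peptidoglycan (PGN), a bacterial wall component that provokes inflammation. The labels name no dose, no time and no untreated group, so the effect of a stimulus alone cannot be read, and all libraries come from 1 cell line.

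MMPs are zinc-dependent proteases, secreted as inactive precursors or held at the cell surface, that cut collagens, laminins, fibronectin and other matrix proteins, and that also process cytokines and receptors. Each active enzyme is blocked by a TIMP bound in its catalytic site, so the balance of MMPs and TIMPs sets how much matrix is degraded. MMP2 is activated at the cell surface by MMP14 with TIMP2 as a bridge, and TIMP1 binds the precursor of MMP9. In acne-prone skin, MMPs of the pilosebaceous unit are studied for their part in tissue damage around inflamed glands and in scarring.

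What the MMPs share and the TIMPs lack can be seen in the coding sequence of the catalytic site. The metzincin zinc-binding motif was searched by name in the principal coding transcript of each gene in GENCODE 29 (GRCh38), and it was found once in each of the 7 MMPs and in 0 of the 3 TIMPs. The 33 coding bases of this site are given, 5′ to 3′, for the 4 MMPs whose levels changed, since these are the enzymes on which the results turn. Capitals mark the codons of the 3 zinc-binding histidines and of the catalytic glutamate.
MMP1: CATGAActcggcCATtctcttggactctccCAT
MMP2: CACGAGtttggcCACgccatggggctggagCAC
MMP9: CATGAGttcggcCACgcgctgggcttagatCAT
MMP14: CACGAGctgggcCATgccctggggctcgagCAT
The stretch lies in exon 5 of MMP1 (chr11:102795549-102795581, minus strand), exon 8 of MMP2 (chr16:55491827-55491859, plus strand), exon 8 of MMP9 (chr20:46012453-46012485, plus strand) and exon 5 of MMP14 (chr14:22843283-22843315, plus strand). The gelatinases MMP2 and MMP9 share 24 of 33 bases there, MMP2 and MMP14 share 27, and MMP1 and MMP2 share 18.

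Expression was deposited as TPM, a gene's share of all transcripts after correction for transcript length, with LA and PGN libraries in separate tables. From 14489 to 15452 genes per library were at 1 TPM or more. Shares keep no depth, so depth is unknown and no counting interval is given. The tables carry different names for 1432 identifiers, so levels are compared by test only within a table, and levels under LA and PGN are set side by side. Of 15 sebocyte and epithelial markers, 13 stood at 1 TPM or above in each group, while the melanocortin receptor gene MC5R was listed at 0. The summed level of these markers ranged from 7349 to 7497 TPM with LA, 8453 to 8511 TPM with LA and RVT, 10440 to 10630 TPM with PGN and 10860 to 11040 TPM with PGN and RVT. Most of this sum came from the keratin genes KRT7, KRT8, KRT18 and KRT19. Single markers moved in both directions with RVT, such as KRT8 (1754 and 2092 TPM) and KRT5 (189 and 147 TPM) under LA. Changes given below are log2 fold changes on the log2(TPM + 1) scale, on which low genes appear to change less than they do. The standard error (SE) and the two-sided Benjamini-Hochberg adjusted p come from limma, fitted over every gene averaging 1 TPM or more. A gene was called at an adjusted p under 0.05. In bulk samples, fewer cells expressing a gene and less RNA per cell cannot be told apart.

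The levels of the 10 genes fell into 3 tiers. TIMP1 and TIMP2 were the most abundant in every group, at mean levels of 185.6 to 311 TPM. MMP14, MMP2, MMP9 and TIMP3 had means of 6.27 to 97.6 TPM, and the means of MMP1, MMP13, MMP10 and MMP3 were at most 5.84 TPM. TIMP2 was the highest in both LA groups (311 and 308 TPM) and TIMP1 in both PGN groups (260.5 and 287 TPM), with no overlap between these neighbours in any group. In the PGN libraries, MMP14, MMP9 and MMP2 stood next to each other at 49.4, 47.2 and 45.8 TPM and overlapped over the libraries. With LA alone, the same 3 genes were spread over 97.6, 6.27 and 22.5 TPM with no overlap.

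**Figure D1:**
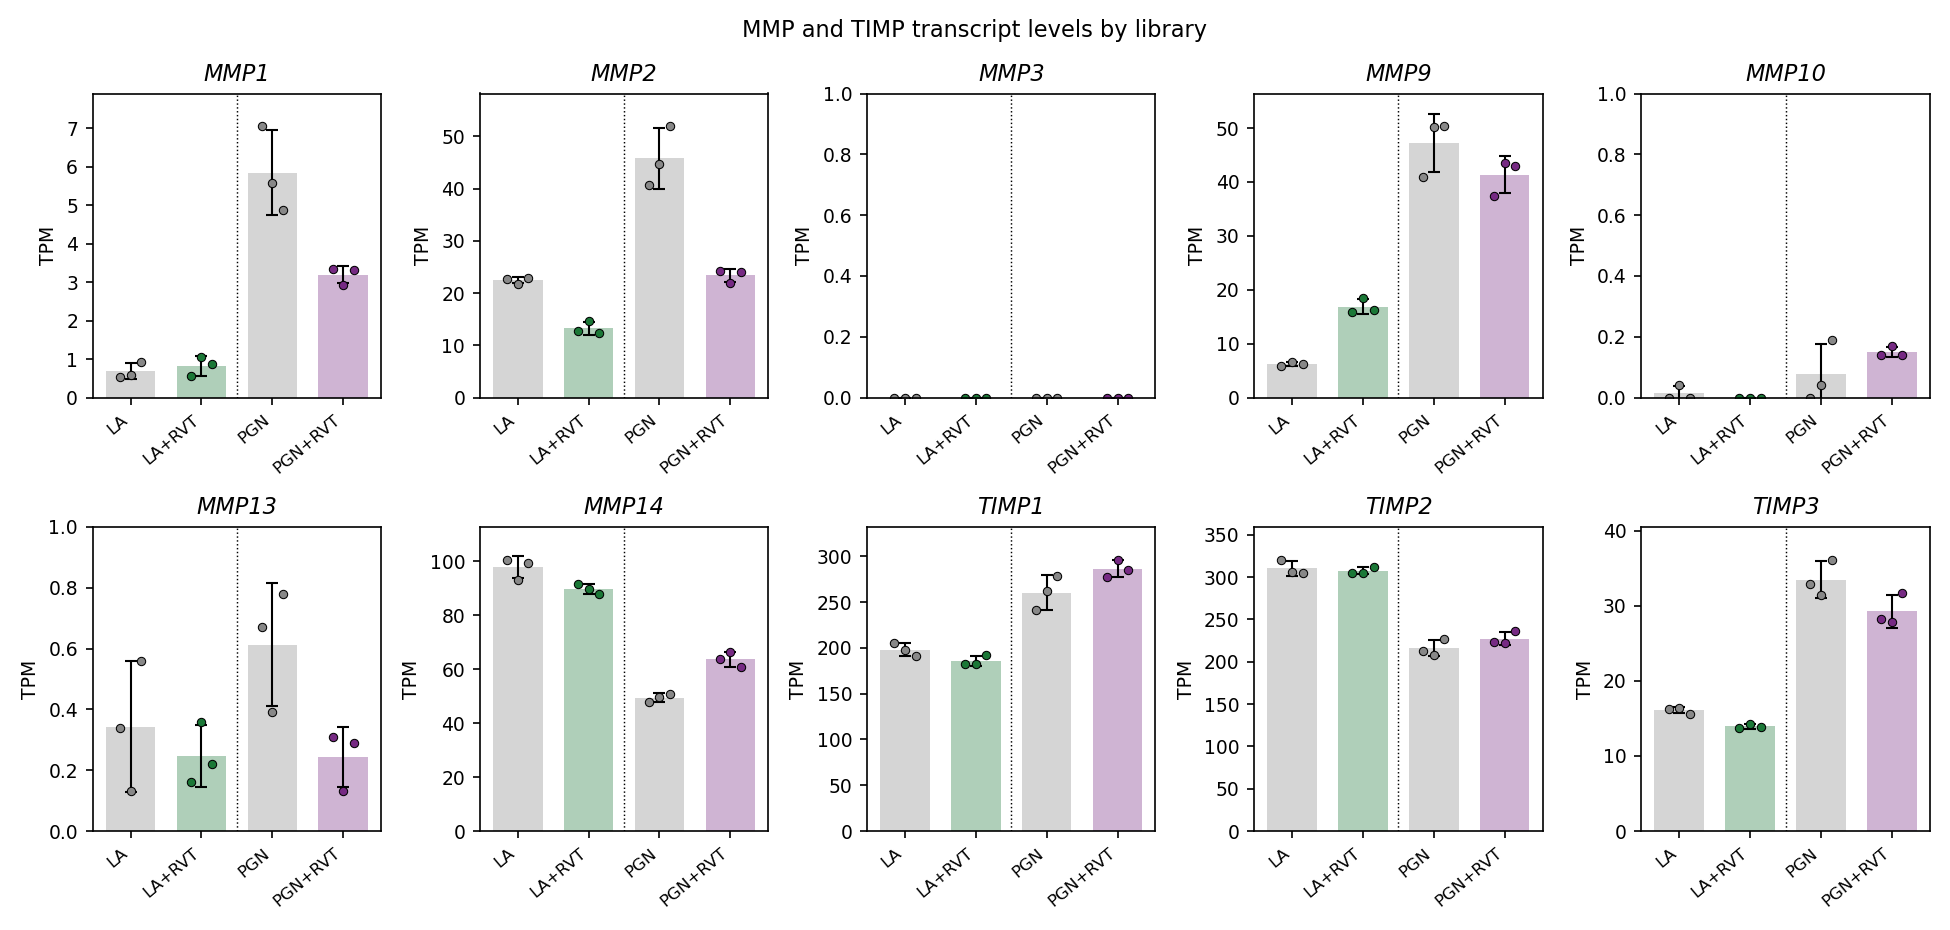
TPM of each MMP and TIMP gene in the 4 groups; points are libraries, bars the mean and whiskers the SD of 3 libraries, each panel has its own scale, and the dotted line parts the LA table from the PGN table. MMP9 rises from 6.27 to 16.9 TPM with RVT under LA, MMP2 falls with RVT on both sides of the line, and MMP3 is listed at 0 throughout.

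The LA arm asked what resveratrol did to these genes in lipid-loaded cells. The 2 gelatinase genes moved in opposite directions: MMP9 rose 2.69 times and MMP2 fell by 41.0%, while MMP14 and the 3 TIMP genes were not called. Of the 6 members that passed the filter on low values, 1 was called higher and 1 lower, beside 15.7% of all 15409 genes tested (10.7% higher and 5.07% lower). MMP1, MMP3, MMP10 and MMP13 were below the filter and were not tested.

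The PGN arm asked the same under the inflammatory stimulus. MMP2 fell by 48.8% and the collagenase gene MMP1 fell by 45.3%, the membrane enzyme gene MMP14 rose 1.29 times, and MMP9 and the TIMP genes were not called. Of the 7 members that passed the filter, 1 was called higher and 2 lower, beside 15.6% of all 14622 genes tested (10.6% higher and 4.92% lower). MMP3, MMP10 and MMP13 were below the filter.

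MMP2 (gelatinase A, ENSG00000087245, chr16:55389700-55506691 on GRCh38) degrades denatured collagen and type IV collagen of the basement membrane. It stood at 22.73, 21.79 and 22.96 TPM in LA libraries and at 12.67, 14.73 and 12.42 TPM after RVT was added. All 3 RVT libraries lay below all 3 LA libraries, and the mean fell from 22.5 ± 0.620 to 13.3 ± 1.27 TPM (SD, n = 3 per group; log2 fold change -0.72 ± 0.076 SE, limma adjusted p = 0.00181). In the PGN arm it stood at 40.61, 44.71 and 51.97 TPM without RVT and at 24.28, 22 and 24.01 TPM with it. Here too the groups did not overlap, and the mean fell from 45.8 ± 5.75 to 23.4 ± 1.25 TPM (log2 fold change -0.93 ± 0.095, limma adjusted p = 0.00136). The falls in the 2 arms differed by -0.21 on the log2 scale (95% confidence interval -0.49 to 0.068, limma adjusted p = 0.315), and this interval includes 0. Of 5 endothelial markers only CDH5 reached 1 TPM in each group, and the summed list stood at 17.6 to 18.0 TPM with LA, 7.28 to 8.10 TPM with LA and RVT, 24.9 to 26.5 TPM with PGN and 23.4 to 24.1 TPM with PGN and RVT. Whether it bears on MMP2 was not tested.

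MMP9 (gelatinase B, ENSG00000100985, chr20:46008908-46016561) has similar substrates to MMP2 and is best known as a product of neutrophils, macrophages and activated epithelium. Its levels were 5.92, 6.68 and 6.22 TPM in LA libraries against 15.88, 18.46 and 16.21 TPM when RVT was added. The RVT libraries stood above the LA libraries without overlap, with a log2 fold change of 1.29 ± 0.084 (limma adjusted p = 0.000387). Under PGN the levels were 40.98, 50.20 and 50.37 TPM without RVT and 37.43, 43.56 and 43.04 TPM with it. These groups overlapped, and the mean of 47.2 ± 5.37 against 41.3 ± 3.40 TPM was not called (log2 fold change -0.18 ± 0.099, 95% confidence interval -0.41 to 0.048, limma adjusted p = 0.258). The RVT effects in the 2 arms differed by -1.48 ± 0.13 on the log2 scale (limma adjusted p = 4.18e-05). The neutrophil genes MPO and ELANE were listed at 0 in all groups and the leukocyte gene PTPRC had group means of at most 0.207 TPM. Of 11 immune markers 2 reached 1 TPM in each group (CD14 and CD68), and the summed level of the list was 48.3 to 51.7 TPM with LA and 54.9 to 58.4 TPM with LA and RVT, then 34.0 to 38.0 TPM with PGN and 52.3 to 53.7 TPM with PGN and RVT. CD68 held most of that sum and had higher means with RVT in both arms. These were 46.6 and 54.2 TPM under LA and 32.4 and 49.7 TPM under PGN, without and with RVT. CD14 had means of 2.56 and 1.56 TPM under LA and 3.10 and 2.81 TPM under PGN. Whether either bears on MMP9 was not tested. SLC12A5-AS1, an antisense gene that overlaps MMP9, stood between 0.420 and 1.46 TPM in the 12 libraries.

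MMP14 (ENSG00000157227, chr14:22836557-22849027) encodes a membrane-type MMP that cleaves fibrillar collagen at the cell surface and activates the MMP2 precursor. It stood at 100.53, 93.01 and 99.38 TPM in LA libraries and at 91.51, 89.60 and 87.74 TPM with LA and RVT. The RVT libraries lay lower without overlap, and 36.2% of all genes tested in this arm had groups that did not overlap. The change was not called (log2 fold change -0.12 ± 0.040, 95% confidence interval -0.22 to -0.026, limma adjusted p = 0.0905). Under PGN it stood at 47.79, 49.63 and 50.87 TPM without RVT and at 63.69, 66.35 and 60.82 TPM with it. Every PGN library with RVT was higher than every one without, and the mean rose from 49.4 ± 1.55 to 63.6 ± 2.77 TPM (log2 fold change 0.36 ± 0.054, limma adjusted p = 0.00627). The effects of RVT in the 2 arms differed by 0.48 ± 0.065 (limma adjusted p = 0.000661).

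MMP1 (interstitial collagenase, ENSG00000196611, chr11:102789920-102798160), which opens the triple helix of fibrillar collagens, was low under LA. Its levels were 0.53, 0.59 and 0.92 TPM in LA libraries and 0.55, 1.05 and 0.87 TPM with LA and RVT, overlapping groups under the filter (exact two-sided permutation p = 0.6, n = 3 per group). Under PGN it stood at 7.06, 5.58 and 4.89 TPM without RVT and at 3.34, 2.93 and 3.32 TPM with it. The groups did not overlap and the mean fell from 5.84 ± 1.11 to 3.20 ± 0.231 TPM (log2 fold change -0.69 ± 0.14, limma adjusted p = 0.0174). This call was lost without PGN replicate 2 (limma adjusted p = 0.0522) and without replicate 1, 2 or 3 of PGN with RVT (0.0531, 0.0600 and 0.0509), and with no filter (0.0642). MMP1 entered the comparison of the arms only through its PGN libraries, so its difference of -0.81 ± 0.23 (limma adjusted p = 0.0348) is given as a value and supports no call. It lost its adjusted p under 0.05 in 12 of 18 alternatives, 9 of them the removal of 1 library (adjusted p 0.0579 to 0.0775).

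**Figure D2:**
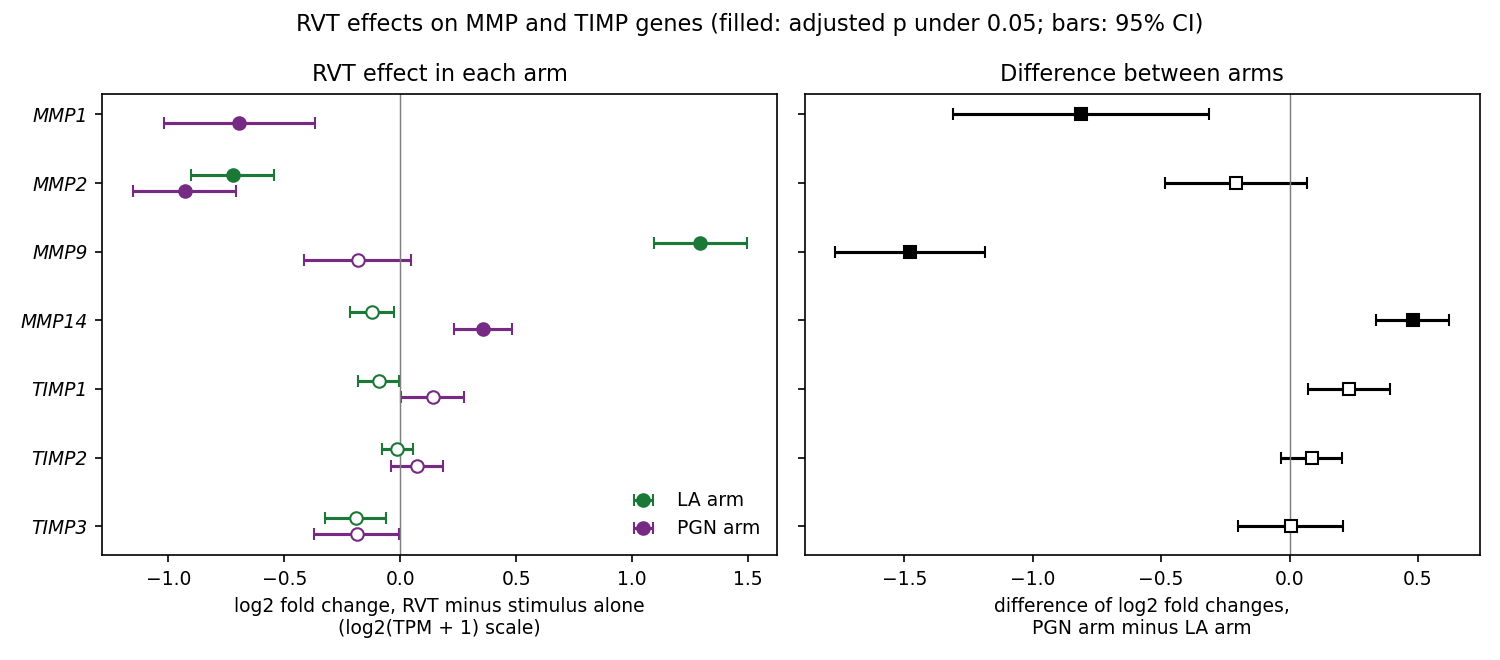
Left, log2 fold change of RVT against stimulus alone for each tested gene in the LA arm (green) and the PGN arm (purple); right, the PGN effect minus the LA effect; bars are 95% confidence intervals and filled symbols have an adjusted p under 0.05. MMP2 lies to the left of 0 in both arms, MMP9 stands apart at 1.29 in the LA arm, and of the differences those of MMP1, MMP9 and MMP14 are filled. That of MMP1 supports no call, since the gene passed the filter only through its PGN libraries.

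The 3 other MMP genes were at or near the lower end of the tables. MMP13 (collagenase 3) stood at 0.34, 0.13 and 0.56 TPM in LA libraries and at 0.16, 0.36 and 0.22 TPM with LA and RVT. Under PGN it stood at 0.67, 0.39 and 0.78 TPM and with RVT at 0.31, 0.13 and 0.29 TPM, groups that did not overlap, as in 36.1% of all genes tested in this arm (exact two-sided permutation p = 0.1, the smallest that 3 against 3 allows; limma adjusted p = 0.181 with no filter). MMP10 (stromelysin 2) was listed at 0 in 5 of the 6 LA-arm libraries and at 0.04 TPM in the other, at 0, 0.04 and 0.19 TPM with PGN and at 0.14, 0.17 and 0.14 TPM with PGN and RVT. MMP3 (stromelysin 1, which degrades proteoglycans and activates other MMPs) was listed at 0 in all 12 libraries. MMP1, MMP3, MMP10 and MMP13 lie in 1 cluster on chromosome 11, between positions 102770503 and 102955734 on the minus strand.

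Promoter sequence is shown for MMP10, listed near 0, and for MMP14, and no relation of motifs to level was tested. In RefSeq (GRCh38.p14), promoter sequences were matched for 4 of the 10 members: MMP10, MMP14, TIMP1 and TIMP3. The 250 bases before each RefSeq start were searched on both strands for the AP-1 motif TGANTCA, the TATA motif TATAAA, the GC box GGGCGG and the ETS motif AGGAAG. MMP10 held 1 AP-1 motif, starting 67 bases before the start, and 1 TATA motif, 31 bases before it, with no GC box and a GC content of 34.4%. MMP14 held neither of these but 1 GC box, 66 bases before its RefSeq start, which lies downstream of the GENCODE gene start, with a GC content of 56.8%. TIMP1 and TIMP3 held 2 and 5 GC boxes, and TIMP1 also the ETS motif. Of 35116 RefSeq promoters, 6.57% held the AP-1 motif, 10.7% the TATA motif, 42.6% the GC box and 28.7% the ETS motif. No motifs overlapped in these 4 windows, and a match is a run of letters, not a binding site. The following 100-base stretches show them in capitals, each ending just before the GENCODE gene start, MMP10 from chr11:102780629-102780728 (minus strand) and MMP14 from chr14:22836457-22836556 (plus strand).
MMP10: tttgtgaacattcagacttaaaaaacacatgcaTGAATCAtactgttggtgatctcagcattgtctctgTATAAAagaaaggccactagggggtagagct
MMP14: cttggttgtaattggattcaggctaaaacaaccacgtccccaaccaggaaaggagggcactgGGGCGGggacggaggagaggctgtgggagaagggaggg

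None of the 3 inhibitor genes was called in either arm. TIMP1 (ENSG00000102265, chrX:47582313-47586789), the inhibitor that binds the MMP9 precursor, stood at 205.26, 197.61 and 191.37 TPM in LA libraries and at 182.15, 182.28 and 192.35 TPM with LA and RVT. The groups overlapped, by the third RVT library alone, with a log2 fold change of -0.093 ± 0.037 (limma adjusted p = 0.144). Under PGN it stood at 240.94, 262.37 and 278.19 TPM and with RVT at 277.56, 296.56 and 285.53 TPM (log2 fold change 0.14 ± 0.058, limma adjusted p = 0.157). Here the highest library without RVT just passed the lowest library with it. TIMP1 and TIMP3 lie within the spans of SYN1 and SYN3 on the opposite strand, which stood between 1.01 and 4.20 TPM and between 0.020 and 0.27 TPM. The difference between the arms was 0.23 (95% confidence interval 0.074 to 0.39, limma adjusted p = 0.0529). It was called without PGN replicate 3 (limma adjusted p = 0.0171) and when only genes averaging 5 TPM or more were fitted (0.0416).

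TIMP2 (ENSG00000035862, chr17:78852977-78925387), the inhibitor that links MMP14 to the MMP2 precursor, stood at 320.81, 305.55 and 305.20 TPM in LA libraries and at 305.52, 305.42 and 312.11 TPM with LA and RVT. The groups overlapped, with a log2 fold change of -0.013 (95% confidence interval -0.079 to 0.054, limma adjusted p = 0.802). Under PGN it stood at 212.79, 208.48 and 227.16 TPM and with RVT at 223.24, 222.41 and 236.29 TPM, again overlapping, with a log2 fold change of 0.073 (95% confidence interval -0.039 to 0.18, limma adjusted p = 0.351). AC022966.1, an antisense gene whose span overlaps TIMP2 by 367 bases, stood at 89.94, 42.99 and 36.67 TPM in LA libraries and at 0, 2.59 and 1.46 TPM with LA and RVT. The same gene stood at 3.62, 31.29 and 17.93 TPM with PGN and at 31.16, 0 and 19.77 TPM with PGN and RVT, so it varied widely within groups. How strand was handled is not given in the sources used, and reads from the overlap cannot be told apart.

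TIMP3 (ENSG00000100234, chr22:32801701-32863043), which stays bound to the matrix and also inhibits ADAM proteases, stood at 16.29, 16.33 and 15.61 TPM in LA libraries and at 13.73, 14.31 and 13.81 TPM with LA and RVT. These groups did not overlap, and the log2 fold change of -0.19 ± 0.055 was not called (limma adjusted p = 0.0614). With PGN it stood at 32.84, 31.38 and 36.16 TPM and with RVT at 28.26, 27.78 and 31.72 TPM (log2 fold change -0.19 ± 0.078, limma adjusted p = 0.155), overlapping groups. The 2 arms differed by 0.0040 on the log2 scale (95% confidence interval -0.20 to 0.21). After library medians on the log2 scale were made equal, MMP14, TIMP1 and TIMP3 were each called lower in the LA arm (limma adjusted p = 0.0346, 0.0472 and 0.0313), which made 5 of 6 tested members called there, 1 higher and 4 lower. This scaling also turned the split of all genes called from 1645 higher and 781 lower to 1041 and 1080 in the LA arm, and from 1557 and 720 to 850 and 1020 in the PGN arm.

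The difference between the arms was fitted for 7 members. MMP1 passed the filter only through the PGN groups, so its adjusted p under 0.05 supports no call. Of the 6 others, MMP14 was called higher and MMP9 lower in the PGN arm than in the LA arm. Over all 15177 genes tested, 14.8% were called (7.73% higher and 7.03% lower). The median log2 fold change over the tested members was -0.11 in the LA arm and -0.18 in the PGN arm, against 0.036 and 0.064 over all genes tested.

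Ratios within a library do not depend on its scaling. Pairs that bind each other, and the 2 gelatinases, were compared this way after the levels had been seen. The exact two-sided permutation p was 0.1 for each of the pairs named next in either arm, the smallest that 3 libraries against 3 allow. In each the groups did not overlap, as in 36.2% and 36.1% of all single genes tested in the LA and PGN arms. The pairs share genes, so they largely restate the changes of single genes given above. For MMP9 per TIMP1 under PGN and MMP14 per TIMP2 under LA, however, neither gene of the pair was called. MMP9 per TIMP1 rose in the LA arm from 0.0317 ± 0.0026 to 0.0909 ± 0.0091 (n = 3 per group), 2.87 times as high, and stood at 0.181 ± 0.011 with PGN and 0.144 ± 0.0083 with PGN and RVT. MMP2 per TIMP2 was 0.0725 ± 0.0024 with LA and 0.0432 ± 0.0045 with LA and RVT, and under PGN it was 0.211 ± 0.019 without and 0.103 ± 0.0051 with RVT, 2.05 times lower. MMP14 per TIMP2 was 0.315 ± 0.011 and 0.291 ± 0.0094 in the LA arm, and 0.229 ± 0.0080 and 0.280 ± 0.021 in the PGN arm. Between the gelatinases, MMP9 per MMP2 was 0.279 ± 0.024 with LA and 1.27 ± 0.030 with LA and RVT, 4.55 times as high, and under PGN it was 1.03 ± 0.080 and 1.77 ± 0.22.

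The 7 listed MMPs and the 3 listed TIMPs were also summed. MMP15 and MMP28, not among them, stood at 32.5 and 19.5 TPM with LA. The sums and their ratio therefore describe the listed genes and not the whole families. The summed level of the 7 MMPs was 127 ± 4.51 TPM with LA and 121 ± 3.37 TPM with LA and RVT (exact permutation p = 0.2, n = 3 per group). Under PGN it was 149 ± 11.1 TPM without RVT and 132 ± 2.99 TPM with it, groups that did not overlap. The 3 TIMPs summed to 4.12 ± 0.162 times the MMPs with LA and 4.20 ± 0.190 times with LA and RVT, overlapping groups. With PGN this ratio was 3.43 ± 0.109, and with PGN and RVT 4.12 ± 0.0818, groups that did not overlap (exact permutation p = 0.1).

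**Figure D3:**
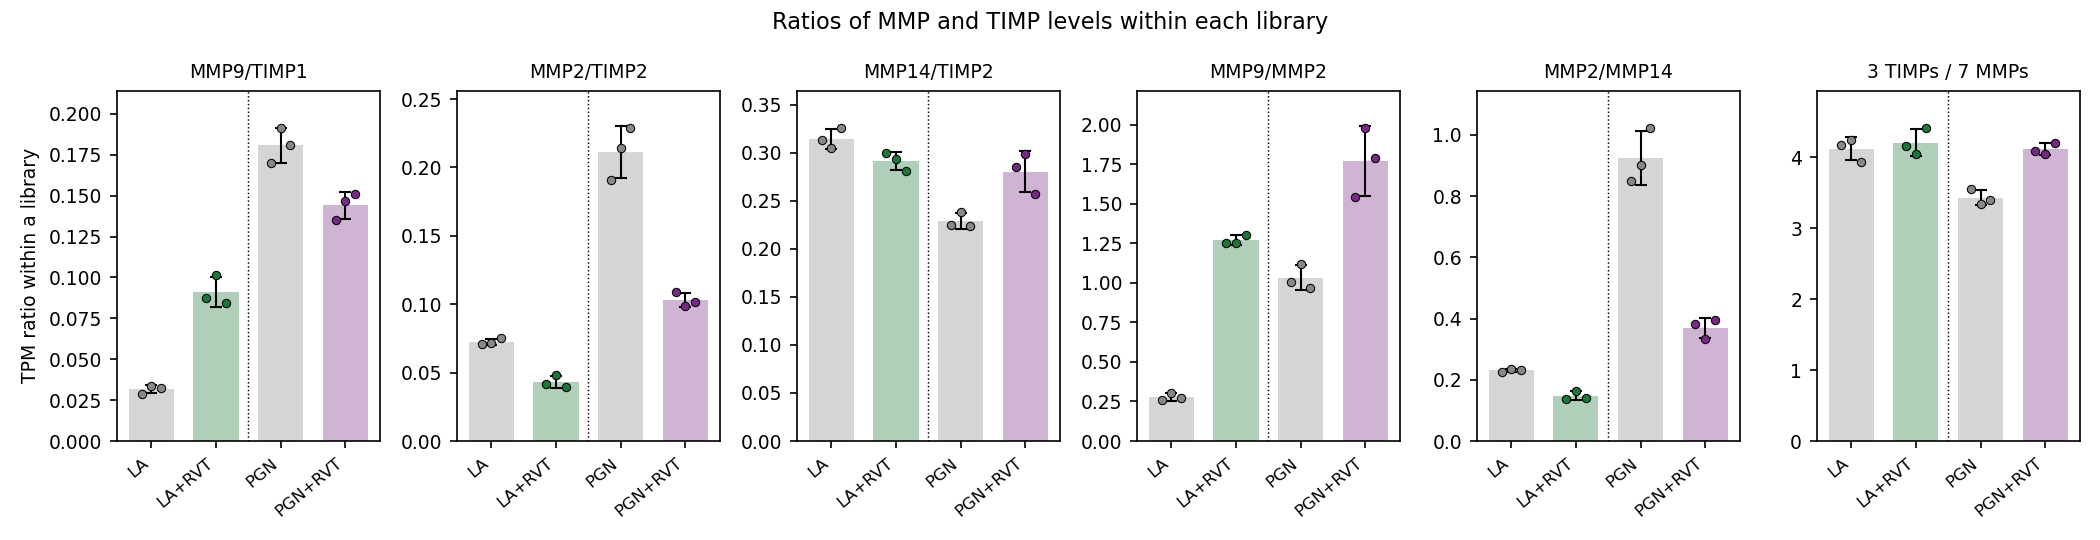
Ratios of TPM within each library for 5 gene pairs and for the 3 TIMPs over the 7 MMPs; points are libraries, bars means and whiskers SDs of 3 libraries, and the dotted line parts the 2 tables. MMP9 per MMP2 goes from 0.279 to 1.27 with RVT under LA, and TIMPs per MMPs overlap between the LA groups and part in the PGN groups.

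Other members of the MMP family and their membrane or secreted inhibitors were mostly low. Of 18 such genes, 8 passed the filter in the LA arm and 7 in the PGN arm, and 1 was called in each, MMP28 in both (12.5% and 14.3% of those tested, near the 15.7% and 15.6% over all genes). MMP28 (epilysin, an MMP of epithelia) fell from 19.5 ± 1.3 to 11.3 ± 0.525 TPM in the LA arm (log2 fold change -0.74 ± 0.071, limma adjusted p = 0.00136) and from 20.5 ± 0.442 to 15.6 ± 0.968 TPM in the PGN arm (log2 fold change -0.37 ± 0.068, limma adjusted p = 0.0132). The fall of MMP28 was larger in the LA arm, and its difference between the arms was called (0.37 ± 0.094 on the log2 scale, limma adjusted p = 0.0222). MMP15, a membrane-type relative of MMP14, stood at 32.5 ± 0.499 and 34.2 ± 1.99 TPM in the LA arm and at 25.4 ± 0.582 and 28.3 ± 0.913 TPM in the PGN arm, without a call. TIMP4 stood at 4.03 ± 1.05 and 4.23 ± 0.190 TPM, then 4.89 ± 0.0802 and 6.16 ± 0.748 TPM, in the same order. MMP8, MMP26 and MMP27 were listed at 0 throughout.

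Among ADAM and ADAMTS proteases, relatives that shed membrane proteins or cut proteoglycans, 3 of 6 tested rose and 1 fell in the LA arm, and 0 of 8 were called in the PGN arm by limma, beside 15.7% and 15.6% of all genes. The smallest values among these 8 were those of ADAM15, ADAM12 and ADAM9 (limma adjusted p = 0.0674, 0.0939 and 0.141). Their log2 fold changes were 0.18, -0.54 and -0.15. ADAM12 stood at 1.55 TPM with PGN and 0.753 TPM with PGN and RVT, so it passed the filter only through the group without RVT. ADAM19 rose from 19.8 ± 1.21 to 36.0 ± 0.608 TPM under LA (log2 fold change 0.83 ± 0.057, limma adjusted p = 0.000425). ADAM8 rose from 252 ± 7.94 to 309 ± 4.75 TPM, and ADAM17, the TNF-converting enzyme, fell from 40.9 ± 0.750 to 35.9 ± 0.704 TPM. ADAM19 and ADAM9 had called differences between the arms (-0.71 and -0.28 on the log2 scale, limma adjusted p = 0.000157 and 0.0159).

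Genes that activate MMPs or hold them at the cell surface were called in both directions, 4 higher and 2 lower of 16 tested under LA and 3 higher and 6 lower of 16 under PGN. Over all genes, 10.7% were called higher and 5.07% lower under LA, and 10.6% and 4.92% under PGN. CD44, a hyaluronan receptor that docks MMP9, rose from 361 ± 3.44 to 493 ± 11.3 TPM in the LA arm (limma adjusted p = 0.000213) and stood at 613 ± 11.3 and 541 ± 35.4 TPM in the PGN arm (0.0542). THBS1, the matricellular protein thrombospondin 1, rose from 155 ± 6.39 to 264 ± 18.0 TPM under LA and fell from 742 ± 19.5 to 346 ± 14.7 TPM under PGN. LCN2, whose product binds and stabilises MMP9, fell from 870.0 ± 20.0 to 677 ± 21.5 TPM under LA and stood at 825 ± 11.3 and 839 ± 28.3 TPM under PGN. PLAU, the urokinase that starts the plasmin cascade, fell from 239.5 ± 9.96 to 107 ± 1.74 TPM under PGN (log2 fold change -1.16 ± 0.044, limma adjusted p = 2.44e-05) and stood at 157 ± 4.01 and 154 ± 3.69 TPM under LA. KLK7 was among the genes called higher under PGN, from 29.9 ± 1.36 to 53.8 ± 3.46 TPM (log2 fold change 0.83 ± 0.066, limma adjusted p = 0.000507). Under LA it stood at 53.8 ± 0.939 and 59.8 ± 2.91 TPM, without a call. The median log2 fold change of this list was -0.0086 in the LA arm and -0.16 in the PGN arm.

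Cytokines and transcription factors that regulate MMP genes, such as the AP-1 and ETS families, were compared between the arms. The difference was called lower in the PGN arm for 14 of 23 and higher for 0, beside 7.03% and 7.73% of all genes. This list, like the others, was chosen with earlier results of these data known, so its counts are descriptive and test nothing about the list. Under LA 8 of 23 tested rose and 3 fell, and under PGN 2 of 24 rose and 15 fell, beside 15.7% and 15.6% of all genes called in either direction. FOSL1, an AP-1 subunit, rose from 160 ± 6.19 to 274 ± 16.9 TPM under LA (log2 fold change 0.77 ± 0.051, limma adjusted p = 0.00039) and fell from 411 ± 25.2 to 205 ± 11.4 TPM under PGN (-0.997 ± 0.060, limma adjusted p = 0.000198). ETS1 rose from 21.7 ± 0.344 to 29.8 ± 0.617 TPM and fell from 50.5 ± 4.61 to 25.7 ± 0.485 TPM. TGFA, an EGF receptor ligand, rose from 96.7 ± 2.57 to 122 ± 0.852 TPM under LA, and fell from 99.1 ± 5.42 to 84.3 ± 2.94 TPM under PGN. ATF3 fell in both arms, from 21.4 ± 0.580 to 12.8 ± 0.939 TPM under LA and from 13.4 ± 1.95 to 9.79 ± 0.315 TPM under PGN, and its difference between them was not called (limma adjusted p = 0.153). IL1A, an inducer of MMP1 in many cells, fell from 80.1 ± 12.6 to 4.22 ± 0.0462 TPM under PGN (limma adjusted p = 5.73e-06) and from 12.9 ± 0.301 to 9.80 ± 0.275 TPM under LA (0.0110). The cytokine genes IL1B and IL6 fell under PGN from 91.0 ± 6.55 to 8.52 ± 1.03 TPM and from 110 ± 8.96 to 39.9 ± 2.14 TPM. Neither was called under LA, where IL1B stood at 14.2 ± 1.02 and 12.7 ± 1.06 TPM and IL6 at 32.8 ± 1.48 and 27.3 ± 2.31 TPM. The differences between the arms were -1.76 ± 0.083 for FOSL1 and -1.38 ± 0.084 for ETS1 (limma adjusted p = 3.49e-07 and 2.39e-06). The list's median log2 fold change was 0.12 in the LA arm and -0.48 in the PGN arm.

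Matrix proteins that MMPs cut were also called in both directions, with 4 higher and 5 lower of 21 tested under LA and 1 higher and 8 lower of 21 under PGN, beside 15.7% and 15.6% of all genes called. COL4A1, a type IV collagen chain of the basement membrane and a substrate of both gelatinases, fell from 36.4 ± 0.569 to 28.3 ± 0.576 TPM under LA (limma adjusted p = 0.00289) and from 44.7 ± 1.41 to 26.4 ± 0.657 TPM under PGN (limma adjusted p = 0.000395). COL4A2, its partner chain, fell from 135 ± 3.16 to 121 ± 2.38 TPM under LA and from 129 ± 3.90 to 92.3 ± 3.63 TPM under PGN. LAMA3, LAMB3 and FN1, encoding epithelial laminin chains and fibronectin, rose under LA (log2 fold changes 0.67, 0.65 and 0.63) and fell under PGN (-0.33, -0.35 and -0.20). The fibroblast markers DCN and POSTN were listed at 0 in all groups, and COL1A1 stood between 6.44 and 9.91 TPM in group means. Summed over 9 fibroblast markers, of which COL1A1 and THY1 reached 1 TPM, levels ranged from 10.9 to 16.0 TPM with LA, 12.99 to 15.85 TPM with LA and RVT, 10.4 to 16.4 TPM with PGN and 12.1 to 16.0 TPM with PGN and RVT.

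**Figure D4:**
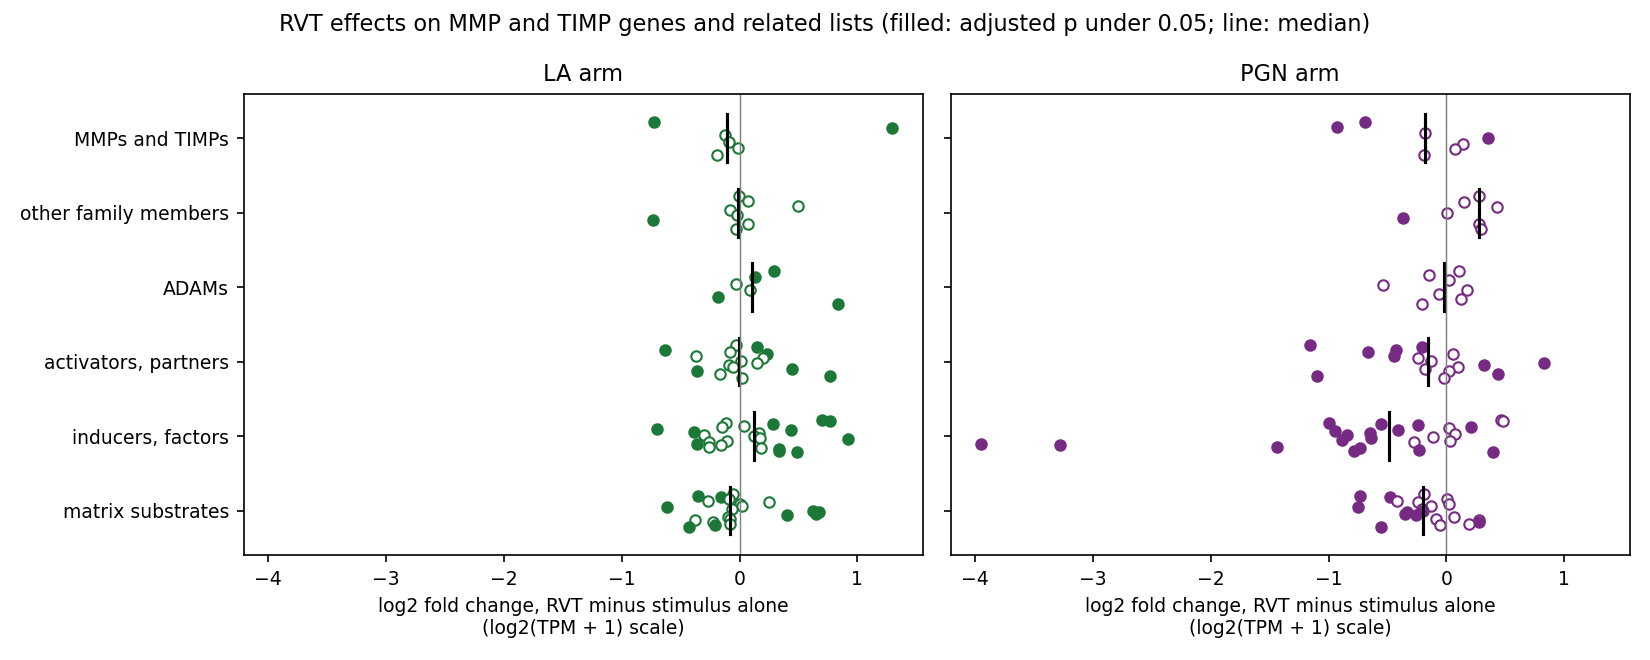
Log2 fold change of RVT against stimulus alone for each tested gene, by list, in the LA arm (left) and the PGN arm (right); filled points have an adjusted p under 0.05 and the vertical line is the list's median. Inducers and factors have a median of 0.12 on the left and -0.48 on the right, and the 6 and 7 tested MMPs and TIMPs lie on both sides of 0.

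The genes whose levels most resembled those of MMP9 were TCOF1, FKBP4 and ACTN1, by Pearson correlation over 12 libraries after the mean of each arm was removed (r = 0.983, 0.983 and 0.980 among 10530 genes compared). FKBP4, a co-chaperone of HSP90, had means of 47.9 and 71.2 TPM in the LA arm and 75.7 and 73.8 TPM in the PGN arm, without and with RVT. For TIMP1 the nearest were EEF1A2, FKBP8 and WBP1 (r = 0.969, 0.959 and 0.951), and EEF1A2, a translation elongation factor, had means of 954 and 882 TPM, then 1073 and 1195 TPM. MMP1 was not tested in the LA arm and was not compared in this way. These correlations describe libraries that share group and arm, and they were the highest of many.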

How the data were processed

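The authors deposited TPM per gene in 2 tables, 1 column per library, rounded to 2 decimals, as the column names in the file headers and the values show. The build GRCh38.p13 and the tools RSEM 1.3.1, HISAT2 2.1.0 and DESeq2 1.24.0 are named in the submitters' processing notes without roles; annotation and strand handling are not given in the sources used here. Columns summed to between 994373 and 997060 TPM. Groups and replicate numbers came from sample titles, and the 10 genes were matched on trimmed names and joined by identifier.

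Deposited values were converted to log2(TPM + 1). Those genes whose average in the fitted libraries reached 1 TPM entered limma 3.58.1 (R 4.3.3, prior variance with a trend), on 6 libraries per arm or on 12 for the difference between arms, with Benjamini-Hochberg adjustment over all genes tested. The script was tested on simulated data. Nothing says whether replicates came from separate cultures on separate days, so p-values reflect only how far these libraries vary, which may be technical. Members and lists were chosen with earlier results of these data known. All 10 members are named, with genes from among the 4 of each list with the smallest p in each arm, not all of which are given, and the 3 genes most like MMP9 and TIMP1; genes listed at 0, marker genes and overlapping genes were added after their values were seen. Positions came from GENCODE 29 and promoters from RefSeq. Alternatives were pseudocounts of 0.1 and 0.5 TPM, no filter, a mean of at least 5 TPM, equalised library medians, a constant robust prior variance, a replicate block and each library left out.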

Additional observations from a re-analysis of the deposited data

Results flagged for a closer look

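By limma's test of the difference itself, the effect of RVT differed between the 2 arms for MMP9 and MMP14. Each stimulus has its own deposited table, so stimulus and table cannot be told apart here. The effect on MMP9 in the PGN arm minus that in the LA arm was -1.48 on the log2 scale. Its rise under LA was called, with groups that did not overlap, and under PGN the groups overlapped. For MMP14 it was 0.48, with a called rise under PGN and an uncalled change of -0.12 under LA. For MMP1 the fitted value was -0.81, but this gene passed the filter only through its PGN libraries, and its adjusted p rose above 0.05 in 12 of 18 alternatives, so no difference is claimed.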

How the results depend on the processing

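The calls of MMP2 in both arms, MMP9 in the LA arm and MMP14 in the PGN arm held in 13 of 13 alternatives each, and those of the differences of MMP9 and MMP14 in 19 of 19. The number of all genes called in the LA arm (2426) was 1610 with no filter, 1502 with the replicate block and 1428 to 1690 with 1 library left out. In the PGN arm (2277) it was 1384 with no filter, 1095 to 1861 with 1 library left out and 1574 with the block. For the difference between arms (2240) it was 1714 to 2250 with 1 library left out and 1730 with the block. Members called in the LA arm were 5 with library medians equalised and 2 with the block. After group means were removed, same-numbered libraries correlated at -0.0702 to -0.00676 in the LA arm and 0.00805 to 0.0407 in the PGN arm. Differently numbered libraries correlated at -0.0301 to 0.0584 and at -0.0409 to 0.0164. With so few libraries per group, these values do not settle whether the numbers mark pairs. For MMP9 in the PGN arm the block gave an SE of 0.053, and the change was still not called (limma adjusted p = 0.0905). Under the block the MMP1 difference was not called (limma adjusted p = 0.0591), nor with a pseudocount of 0.1 TPM (0.0790) or no filter (0.0906). The TIMP2 change in the LA arm ranged from -0.025 to 0.011 with 1 library left out, and its sign turned without LA replicate 1. The TIMP3 difference was -0.015 with medians equalised and -0.054 to 0.060 with 1 library left out, below 0 in 7 of 12. The cause was not tested. Depth is unknown, which limits what can be said of MMP3, MMP10 and MMP13.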
